A study of Mus musculus with 50 samples.

Results

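The hippocampus of adult mice labelled S1P2-KO was compared with wild-type hippocampus on 20 of the 50 Affymetrix oligonucleotide arrays of a mouse brain study. The arrays were chosen by the genotype and tissue in their titles, which gave 10 arrays labelled S1P2-KO and 10 labelled wild type, each with 5 males (replicates 1 to 5) and 5 females (replicates 6 to 10). The mice were killed at 8 weeks of age. Mice deficient in S1P2 have sporadic spontaneous seizures between 4 and 7 weeks of age and wild-type mice served as their controls, so the comparison asks which hippocampal transcripts differ after that period. The titles call the replicates biological. The labels give neither the strain nor the way the gene was inactivated, and they do not say when the last seizure took place. For part of the comparisons below, 20 neocortex arrays of the same genotypes and 5 hippocampus arrays labelled S1P3-KO, a genotype without such seizures, were also used.

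S1P2 is a cell surface receptor for sphingosine 1-phosphate, a signalling lipid made from membrane sphingolipids by sphingosine kinases and removed by a lyase and by phosphatases. It signals through several classes of G protein. In the hippocampus, bursts of neuronal firing induce immediate early genes within minutes, and seizures are also known to be followed by a slower response of astrocytes and microglia.

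Signals are MAS5 values on a linear scale, in the units in which the array mean was set to about 1000. Differences are S1P2-KO minus wild type on the scale log2(signal + 30.7), with the standard error of limma, and understate the change of dim genes. No probe set passed the threshold of an adjusted p under 0.05 in limma with sex as a covariate: the number called was 0 of 8534 (0%), while 656 reached an unadjusted p under 0.05. Per gene, with each gene read by its brightest probe set, 230 of 6350 (3.62%) were higher and 274 (4.31%) lower at that unadjusted p. The wild-type median was exceeded on 10 of 10 S1P2-KO arrays for 78 genes (1.23%) and undercut on 10 of 10 for 82 genes (1.29%). The groups did not overlap for 0 of 6350 genes (0%). The values below are therefore differences that did not pass adjustment over all probe sets. Differences printed with ± carry their standard error, and the others are point estimates.

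Dissection and array quality were compared first. Dsp, a desmosome gene used as a marker of dentate granule cells, had a median of 1272 in S1P2-KO and 1181 in wild-type hippocampus, against 122 and 113 in neocortex of the same genotypes. The neocortex marker Mef2c had a median of 1143 in S1P2-KO and 1212 in wild-type hippocampus, against 7225 and 7678 in neocortex. Of 8 neocortex markers, 5 were lower and 3 higher in S1P2-KO hippocampus, and 2 were lower at an unadjusted p under 0.05 (4.31% of all genes). Cux2 differed by -0.74 ± 0.27, on signals of 34.0 to 61.5 in S1P2-KO and 37.2 to 204.9 in wild type. Its hippocampus medians of 42.15 and 77.25 lay below the signal of 132.6 that served as the filter on dim probe sets. That filter used all 50 arrays, and in neocortex the Cux2 medians were 449.35 and 397.85. Tbr1 differed by -0.25 ± 0.12. The part of dissection in the results below was not tested. The 3' to 5' control ratio, averaged in log2 over Gapdh and beta-actin and high in degraded RNA, had a median of 0.309 on S1P2-KO arrays (0.0178 to 1.37) and 0.393 on wild-type arrays (0.261 to 1.20). It exceeded 1 on S1P2-KO replicate 7 and wild-type replicate 4. The groups differed by -0.096 in this ratio (two-sided permutation p = 0.519). Ttr, the transthyretin secreted by the choroid plexus next to the hippocampus, ran from 49.4 to 23058 on S1P2-KO arrays and from 27.3 to 33071 on wild-type arrays, and its log2 level differed by 0.45 (permutation p = 0.766). Eif2s3y, a Y-linked gene, matched the sex in the titles on all 20 arrays. Xist, the RNA that silences an X chromosome in females, had 177.8, 68.8, 736.1, 296.9 and 543.2 on female S1P2-KO arrays 6 to 10, and 103.5, 190.0, 1828, 1534 and 1847 on female wild-type arrays 6 to 10. Arrays 6 and 7 were the lowest females in both genotypes, and on arrays 8 to 10 every S1P2-KO value lay below every wild-type one. Male arrays had at most 73.1.

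**Figure D1:**
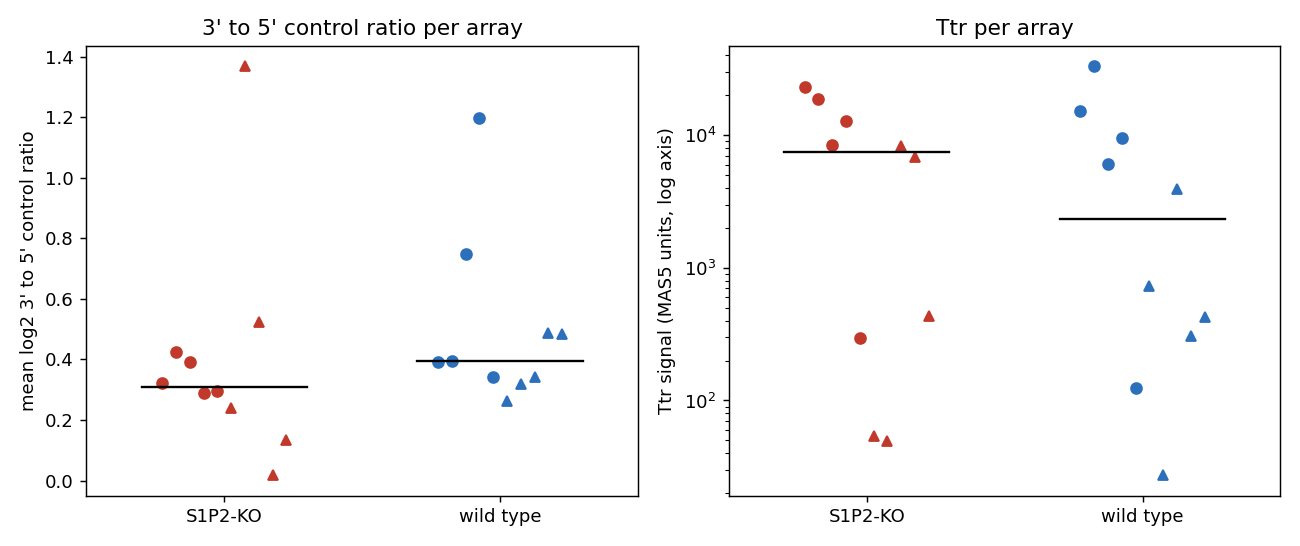
The 3' to 5' control ratio in log2 (left) and Ttr signal on a log axis (right) on each hippocampus array, S1P2-KO left and wild type right, circles for males, triangles for females, lines for medians. One array of each genotype stands above a ratio of 1 (1.37 in S1P2-KO and 1.20 in wild type), and Ttr spans 49.4 to 23058 in S1P2-KO and 27.3 to 33071 in wild type.

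S1pr2, which encodes S1P2, is read by 1 probe set. Its signal ran from 340.5 through a median of 478.3 to 834.5 on S1P2-KO arrays, and from 373.9 through 649.9 to 962.2 on wild-type arrays. The groups overlapped over most of their range, and the wild-type median was undercut on 8 of 10 S1P2-KO arrays. The difference was -0.24 ± 0.16 (limma adjusted p = 0.739). Where this probe set lies relative to the inactivated part of the gene is not given in the sources used here, so the genotype rests on the titles. S1pr3, another receptor for the same lipid, had a median of 829.4 in S1P2-KO and 859.8 in wild type and differed by 0.13 ± 0.15. The other tested receptors, S1pr1 and Lpar1, differed by -0.02 and 0.12. Of 13 tested genes of sphingosine 1-phosphate metabolism, 4 were higher and 9 lower, and 0 had an unadjusted p under 0.05 (7.94% of all genes).

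Activity-induced transcription factor genes, which neurons switch on after firing, were lower in S1P2-KO hippocampus for 13 of 16 tested members, with a median difference of -0.21. Among all genes 3274 of 6350 were lower, with a median of -0.005. At an unadjusted p under 0.05, 5 of the 16 were lower (Nr4a1, Fos, Egr2, Egr1 and Klf4) and 0 were higher, beside 4.31% and 3.62% of all genes. In S1P2-KO neocortex 14 of the 16 were lower, with a median of -0.42. On S1P3-KO hippocampus arrays, set against the same wild-type arrays, 13 were lower, with a median of -0.38. Fos, Nr4a1 and the phosphatase gene Dusp1 are shown here with the 250 bases before their transcription start, Fos and Nr4a1 as the members with the smallest p and Dusp1 as the one whose window holds the full element below. The sequences are those of RefSeq on GRCm38.p6, read 5′ to 3′ on the strand of the gene. Capitals mark the cyclic AMP response element TGACGTCA and its core TGACG, searched on both strands. The AP-1 site TGACTCA and the CArG box were also searched and occur in none of the 3 windows. The full element holds the core.
Fos, AP-1 transcription factor gene, chr12:85473640-85473889, plus strand: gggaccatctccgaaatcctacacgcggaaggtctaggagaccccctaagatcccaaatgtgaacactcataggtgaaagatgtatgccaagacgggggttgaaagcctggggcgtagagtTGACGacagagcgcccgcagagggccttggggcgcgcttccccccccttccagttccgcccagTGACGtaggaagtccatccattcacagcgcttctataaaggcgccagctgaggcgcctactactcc
Nr4a1, nuclear receptor gene, chr15:101266596-101266845, plus strand: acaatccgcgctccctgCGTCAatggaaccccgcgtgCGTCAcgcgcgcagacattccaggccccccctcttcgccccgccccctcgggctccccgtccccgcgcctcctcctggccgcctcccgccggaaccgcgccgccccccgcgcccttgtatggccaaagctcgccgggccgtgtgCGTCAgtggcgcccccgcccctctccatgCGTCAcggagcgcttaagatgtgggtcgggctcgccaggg
Dusp1, MAP kinase phosphatase gene, chr17:26508473-26508722, minus strand: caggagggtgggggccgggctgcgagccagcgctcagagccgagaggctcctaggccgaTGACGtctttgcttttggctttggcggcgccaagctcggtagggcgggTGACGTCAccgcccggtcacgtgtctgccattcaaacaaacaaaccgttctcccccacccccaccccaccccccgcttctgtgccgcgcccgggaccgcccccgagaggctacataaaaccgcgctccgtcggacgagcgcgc

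The core occurred 2 times before Fos, 4 times before Nr4a1 and 3 times before Dusp1, which also held 1 full element. Of 32851 promoter windows of this length, 17.8% held the core and 1.55% the full element, and the AP-1 site was held by 4.46% and the CArG box by 1.47%. Among the other members looked at, Klf4 and each of the 2 windows of Per1 held the core 1 time, and Gadd45b held none of the 4 motifs in this window. Egr2 has 5 windows, of which 4 held a CArG box and 3 held the core 2 times.

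Fos, an AP-1 subunit and a common marker of recent firing, had 284.9, 287.4, 420.0, 386.3 and 330.5 on the male S1P2-KO arrays and 371.1, 483.7, 425.3, 556.6 and 471.0 on the female ones. On wild-type arrays it had 837.0, 635.2, 2643, 2562 and 747.0 in males and 356.5, 439.5, 916.2, 1035 and 1652 in females. All 10 S1P2-KO arrays lay in a narrow band, whereas wild-type replicates 3 and 4 stood far above the others and replicates 6 and 7 lay inside the S1P2-KO range. The highest array exceeded the lowest 1.95 times in S1P2-KO and 7.41 times in wild type. Fos differed by -1.23 ± 0.29 (limma adjusted p = 0.345), with -1.77 in males and -0.70 in females (interaction unadjusted p = 0.059, adjusted p = 0.654).

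Wild-type replicates 3 and 4, which had the highest Fos, also had the highest 3' to 5' ratios of their group, 0.749 and 1.20. The part of RNA quality in the Fos difference was not tested. Without the arrays with a ratio above 1, which include wild-type replicate 4 but not replicate 3, Fos differed by -1.11. Leaving out single arrays gave -1.38 to -1.07, the smallest without wild-type replicate 3.

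Nr4a1, an orphan nuclear receptor induced by firing, ran from 610.3 through a median of 998.1 to 1338 on S1P2-KO arrays and from 815.3 through 2102 to 3385 on wild-type arrays. No S1P2-KO array reached the wild-type median, and wild-type replicates 6 and 7 were again the lowest of their group. The difference was -1.01 ± 0.23 (limma adjusted p = 0.250), and -0.90 without the arrays with a ratio above 1. Egr2, a zinc finger transcription factor gene, ran from 121.1 through 215.7 to 313.0 in S1P2-KO and from 186.6 through 340.4 to 969.0 in wild type, where replicates 3 and 4 were the highest, and differed by -0.82 ± 0.26 (unadjusted p = 0.00517, limma adjusted p = 0.502). Egr1, of the same family, had a median of 2392 in S1P2-KO and 3541 in wild type and differed by -0.47 ± 0.16. Klf4, a Krüppel-like factor gene, differed by -0.61 ± 0.25.

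Not every early gene was lower. Fosl2 was higher by 0.44 and Jund by 0.15, and Jun, Atf3, Maff and Crem differed by 0.07 or less in size, all with an unadjusted p above 0.05. Among 17 activity-induced effector genes, 13 were lower and 4 higher, with a median of -0.16, and 4 were lower and 1 higher at an unadjusted p under 0.05 (4.31% and 3.62% of all genes). Gadd45b, a stress and plasticity gene, had a median of 629.2 in S1P2-KO and 995.3 in wild type and differed by -0.44 ± 0.13 (limma adjusted p = 0.472). Dusp1, which switches off MAP kinases, had a median of 1075 in S1P2-KO and 1287 in wild type and differed by -0.50 ± 0.16, with wild-type replicates 3 and 4 the highest. Per1, a clock gene that is also induced by activity, differed by -0.37 ± 0.14. Nptx2, a secreted protein that clusters glutamate receptors, was the exception and was higher by 0.40 ± 0.14. Bdnf, the neurotrophin induced by firing, differed by -0.03.

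**Figure D2:**
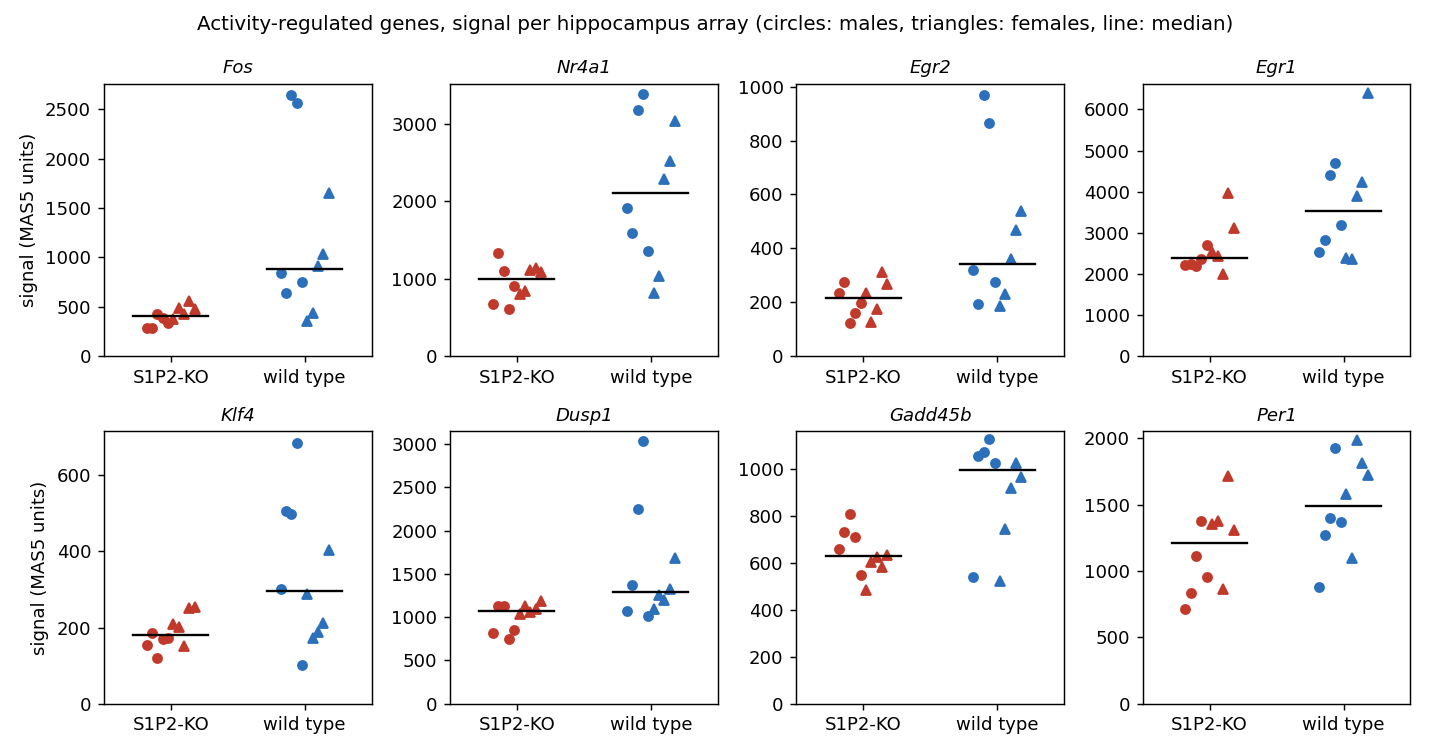
MAS5 signal of 8 activity-regulated genes on each hippocampus array, S1P2-KO left and wild type right, circles for males, triangles for females, lines for medians, axes from 0. Fos spans 284.9 to 556.6 in S1P2-KO and 356.5 to 2643 in wild type. All 8 genes shown are members that were lower at an unadjusted p under 0.05, so their lower S1P2-KO medians follow from that choice. Members that were higher, among them Nptx2 and Fosl2, are not shown.

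Seizure-responsive neuropeptide and trophic factor genes showed no common direction: 8 of 17 were higher and 9 lower, with a median of -0.02. Galr1, a receptor for the neuropeptide galanin, was the 1 member with an unadjusted p under 0.05 (3.62% of all genes were higher). It was higher by 0.49 ± 0.23 and dim, at 149.7 to 375.3 in S1P2-KO and 70.3 to 299.6 in wild type.

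Astrocyte markers were higher for 11 of 17 tested members, with a median of 0.10, and 5 were higher and 0 lower at an unadjusted p under 0.05 (3.62% and 4.31% of all genes). With log2 Ttr as a covariate the median was 0.067 and 4 were higher. Gfap, the intermediate filament of astrocytes, ran from 2806 through 3070 to 3850 on S1P2-KO arrays and from 2100 through 2379 to 3263 on wild-type arrays. The wild-type median was exceeded on every S1P2-KO array, while 4 wild-type arrays reached into the S1P2-KO range. Gfap differed by 0.33 ± 0.09 (limma adjusted p = 0.444), by 0.54 in males and 0.13 in females (interaction unadjusted p = 0.024, adjusted p = 0.636), and its second probe set differed by 0.36. The other members were Id4, an inhibitor of helix-loop-helix factors (0.26 ± 0.09), Gjb6, the gap junction protein connexin 30 (0.23 ± 0.08), Glul, which makes glutamine from glutamate (0.29 ± 0.12), and Slc1a2, the glutamate transporter GLT-1 (0.28 ± 0.13). Gja1, the other main astrocyte connexin, differed by -0.04 and Aldoc by -0.03. Of 9 reactive glia genes, among them Gfap, 6 were higher and 3 lower, with a median of 0.15, and Serpina3n, a reactive astrocyte gene, was higher by 0.23 ± 0.09.

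Microglia and macrophage genes showed no common direction: 8 of 17 were higher and 9 lower, with a median of -0.03, and 3 were lower at an unadjusted p under 0.05 (4.31% of all genes). Aif1, the calcium-binding protein IBA1, ran from 54.3 through 89.2 to 171.1 in S1P2-KO and from 84.3 through 218.9 to 309.1 in wild type, close to the signal of 132.6 that served as the filter on dim probe sets. No S1P2-KO array reached the wild-type median. Aif1 differed by -0.88 ± 0.23 (limma adjusted p = 0.410), Cd53, a leukocyte tetraspanin gene, by -0.50 ± 0.16 and Fcgr3, an Fc receptor gene, by -0.50 ± 0.20. The brighter microglia genes C1qa, Csf1r and Cx3cr1 differed by 0.03, 0.00 and 0.08. In these bulk samples fewer cells of a type and less RNA per cell cannot be told apart.

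Genes of oligodendrocytes and myelin were higher for 9 of 10 members, with a median of 0.14. None had an unadjusted p under 0.05 (7.94% of all genes). Choroid plexus and ependyma genes were higher for 13 of 14 members, with a median of 0.29, and the summed signal of the list ran from 8403 to 50719 on S1P2-KO arrays and from 8088 to 57617 on wild-type arrays. With log2 Ttr as a covariate that median was 0.18. Lbp (0.41 ± 0.19) and Cab39l (0.27 ± 0.13) were the members with an unadjusted p under 0.05 (3.62% of all genes were higher). Ttr went with the replicate number in both genotypes: on replicates 1 to 4 and 8 it had 8254 to 23058 in S1P2-KO and 3907 to 33071 in wild type, and on replicates 5, 6, 7 and 10 it had 49.4 to 432.8 in S1P2-KO and 27.3 to 735.2 in wild type. Replicate 9 had 6818 in S1P2-KO and 308.8 in wild type. Endothelial and pericyte genes split, with 7 of 15 tested members higher and 8 lower. At an unadjusted p under 0.05, 2 were higher and 2 lower (3.62% and 4.31% of all genes). Ramp2, which forms the adrenomedullin receptor, was higher by 0.27 ± 0.07 and Eng, a TGF-beta co-receptor, by 0.24 ± 0.09. Kdr, the main VEGF receptor, differed by -0.80 ± 0.29 and Tie1 differed by -0.37 ± 0.16. Kdr was dim and uneven, at 40.3 to 378.1 in S1P2-KO and 124.6 to 372.6 in wild type.

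Cholesterol synthesis genes were lower for 15 of 16 members, with a median of -0.17. At an unadjusted p under 0.05, 3 were lower (4.31% of all genes): Ebp, a sterol isomerase (-0.29 ± 0.12), Fdft1, squalene synthase (-0.19 ± 0.08), and Cyp51, lanosterol demethylase (-0.26 ± 0.11). Mvk, mevalonate kinase, was the member on the other side of 0, at 0.10. None passed adjustment. In S1P2-KO neocortex 13 of the 16 were lower, with a median of -0.12. On S1P3-KO hippocampus arrays, set against the same wild-type arrays, 13 were also lower, with a median of -0.16.

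**Figure D3:**
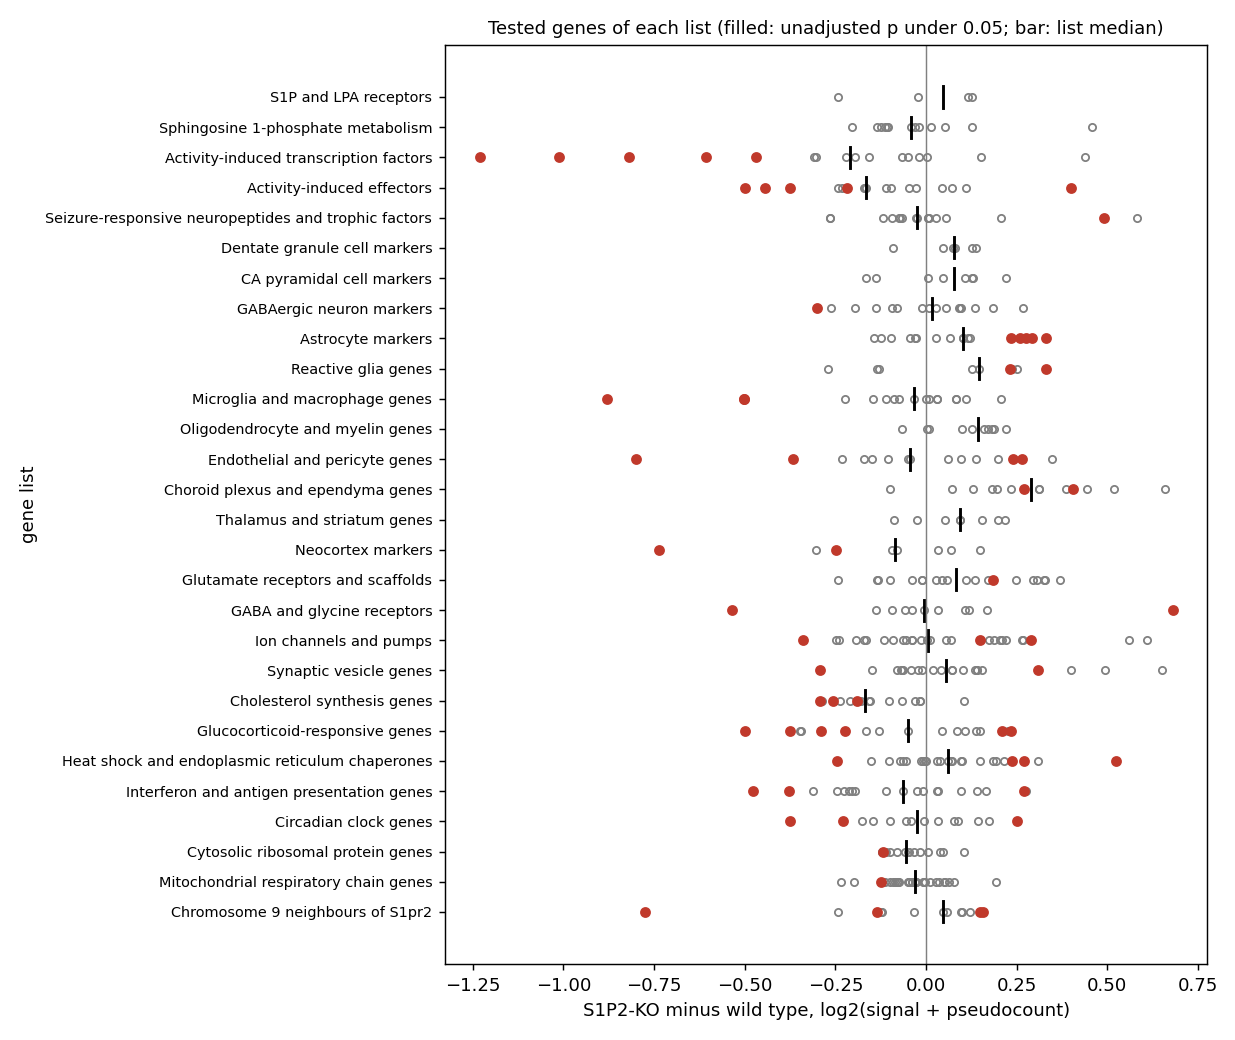
Difference between S1P2-KO and wild-type hippocampus, in log2(signal + pseudocount), for every tested gene of 28 lists (1 row a list). Filled points have an unadjusted p under 0.05, bars are list medians, and the medians lie at -0.21 for activity-induced transcription factors, -0.17 for cholesterol synthesis, 0.10 for astrocyte markers and 0.29 for choroid plexus genes.

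The lists that follow had medians of less than 0.10 in size. Among ion channels and pumps, 15 of 28 were higher, and Scn1a, a voltage-gated sodium channel known from inherited epilepsies, had a median of 1833 in S1P2-KO and 2312 in wild type and differed by -0.34 ± 0.10 (limma adjusted p = 0.444). Kcnk1 and Kcnab2 differed by 0.29 ± 0.13 and 0.15 ± 0.07. Among 11 GABA and glycine receptor genes, Gabrd differed by -0.53 ± 0.22 and Gabrb2 by 0.68 ± 0.30. Of 22 synaptic vesicle genes, Syt2 differed by -0.29 ± 0.11 and Sncb by 0.31 ± 0.11, and of 20 glutamate receptor and scaffold genes Homer3 by 0.19 ± 0.08. Dlx1, a transcription factor gene of GABAergic neurons, differed by -0.30 ± 0.13.

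Of 25 heat shock and endoplasmic reticulum chaperone genes 16 were higher. Pdia6 (0.52 ± 0.20), Hsp90b1 (0.24 ± 0.09) and Creld2 (0.27 ± 0.11), which act in the endoplasmic reticulum, were higher and Dnajb1, a cytosolic co-chaperone, differed by -0.25 ± 0.10. Among clock genes Tef was higher by 0.25 ± 0.08 and Dbp, a related factor, differed by -0.23 ± 0.09. Among 17 glucocorticoid-responsive genes 4 were lower and 2 higher at an unadjusted p under 0.05 (4.31% and 3.62% of all genes). These were Ddit4 at -0.29, Errfi1 at -0.22, Fkbp5 at 0.23 and Mt2 at 0.21 beside the Dusp1 and Per1 already given. Of 19 interferon and antigen presentation genes, Ifi27 differed by 0.27 ± 0.09, Psmb8 by -0.38 ± 0.17 and Irf9 by -0.48 ± 0.23. Ribosomal protein genes were lower for 12 of 16 members and respiratory chain genes for 23 of 31, with medians of -0.05 and -0.03, and Rps7 and Ndufb5 differed by -0.12 each. Dentate, CA and thalamus and striatum lists had 0 members with an unadjusted p under 0.05 (7.94% of all genes).

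The gene with the smallest p of all was Sdc4, the heparan sulphate proteoglycan syndecan 4. Its signal ran from 1467 through 1655 to 1931 on S1P2-KO arrays and from 791.7 through 1209 to 1606 on wild-type arrays. The wild-type median was exceeded on every S1P2-KO array, and 2 wild-type arrays, replicates 5 and 6, reached into the S1P2-KO range. Sdc4 differed by 0.50 ± 0.10 (limma adjusted p = 0.236). Over the alternatives its limma adjusted p ran from 0.0147, without wild-type replicate 5, to 0.767, with all 25 hippocampus arrays in the fit. Replicate 5 had the highest Sdc4 of the wild-type arrays, so leaving it out enlarges the difference (0.56) and is no separate support. Cdk2ap2, a regulator of the kinase CDK2, ran from 998.0 to 1357 in S1P2-KO and from 902.9 to 1062 in wild type and differed by 0.33 ± 0.07. Col18a1, a basement membrane collagen, had a median of 458.5 in S1P2-KO and 293.1 in wild type and differed by 0.85 ± 0.19, with a wild-type range of 108.6 to 412.0. Its second probe set differed by 0.45 (unadjusted p = 0.0897).

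The other 8 of the 12 higher genes, beside Gfap, were Dcps, an mRNA cap-scavenging enzyme (0.47), Lsr, a lipoprotein receptor at cell junctions (0.52), Hs1bp3 (0.35), Rxra, a retinoid X receptor (0.57), Rac2 (0.38), Ramp2 (0.27), Traip, a ubiquitin ligase (0.31), and Tspan33, a tetraspanin (0.46). The second probe set of Rxra differed by 0.01 and so disagreed with the first, and that of Traip differed by 0.14 ± 0.24. Beside Fos, Nr4a1 and Aif1, the 12 lower genes were Ppan, Clcn5, a chloride and proton exchanger of endosomes (-0.62), Entr1 (-0.37), Gpr19, an orphan receptor (-0.46), Ttc27 (-0.59), Fam50a (-0.36), Tnpo3, a nuclear import receptor (-0.46), Mfsd4a (-0.38) and Kpna2, an importin alpha (-0.47). The second probe set of Clcn5 differed by 0.06. For all 24 genes the adjusted p lay between 0.236 and 0.444.

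**Figure D4:**
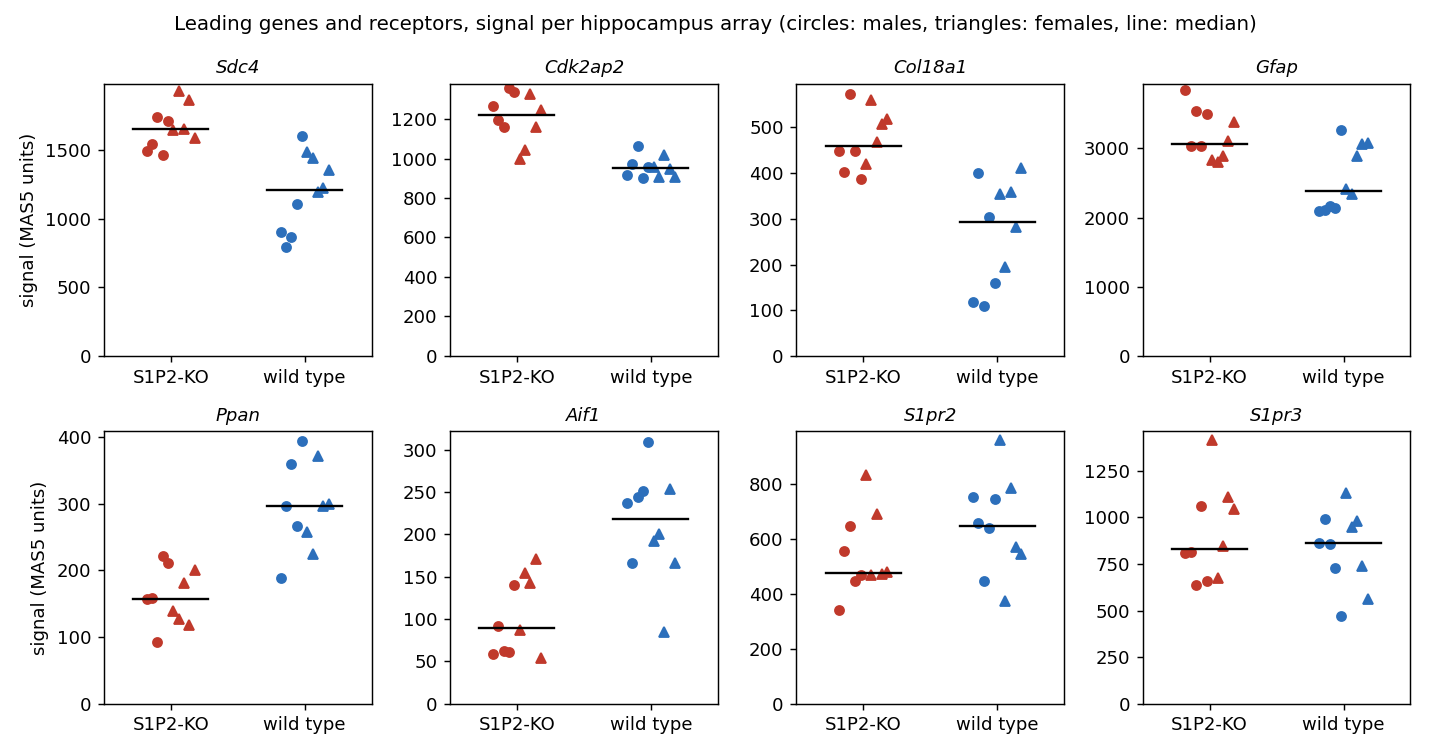
MAS5 signal of 6 of the leading genes and both receptor genes on each hippocampus array, S1P2-KO left and wild type right, circles for males, triangles for females, lines for medians, axes from 0. The S1P2-KO medians are higher for Sdc4 (1655 against 1209) and lower for Ppan (157.5 against 296.1), while S1pr2 and S1pr3 overlap widely.

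Ppan, which acts in ribosome assembly, is a neighbour of S1pr2 on chromosome 9, 3 protein-coding genes away in RefSeq order. Its signal was 156.5, 158.4, 92.5, 220.6 and 211.2 on male and 138.5, 127.1, 180.2, 118.1 and 201.0 on female S1P2-KO arrays, and ran from 188.0 through 296.1 to 393.1 on wild-type arrays. Wild-type replicate 1 was the lowest of its group, and 3 S1P2-KO arrays lay above it. Ppan was dim, and its S1P2-KO signals of 92.5, 127.1 and 118.1 lay below the 132.6 that served as the filter signal. It differed by -0.78 ± 0.16 (limma adjusted p = 0.236), by -0.75 in males and -0.81 in females. In neocortex it differed by -0.60, and on S1P3-KO hippocampus arrays, set against the same wild-type arrays, by -0.03. S1P2-KO and S1P3-KO hippocampus differed by -0.75 in Ppan (unadjusted p = 0.00125, limma adjusted p = 0.222).

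Of 20 tested genes around S1pr2, the nearest 10 on either side, 2 were higher and 3 lower at an unadjusted p under 0.05. The 20 reached 84 protein-coding genes away on one side and 32 on the other. Besides Ppan these 5 included the DNA methyltransferase gene Dnmt1, next to S1pr2 on one side (0.16 ± 0.07). Mrpl4, a mitochondrial ribosomal protein gene, lies next to it on the other (0.15 ± 0.06). Ubl5 (-0.14 ± 0.06) lies 10 genes away and 4931406C07Rik (-0.23 ± 0.10) 67 genes away. That is 25% of the 20, beside 7.02% of 342 tested genes of chromosome 9 and 7.94% of all tested genes. The labels do not give the strain of the embryonic stem cells or of the controls, and the part of flanking sequence in these differences was not tested.

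The difference between genotypes was set against sex, tissue and the other knockout. In the test of genotype by sex, 1 of 8534 probe sets (0.0117%) passed, an unnamed one that differed by -0.88 in males and 1.36 in females (limma adjusted p = 0.00802). The named genes with the smallest interaction p were Slc2a5, a fructose transporter (-1.50 in males, 1.11 in females), Ece1 (0.26 and -0.40), Npepl1 (0.91 and -0.72) and Mpeg1, a macrophage gene (-0.84 and 0.13), each with an adjusted p of 0.534.

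In the test of genotype by tissue 0 of 8534 probe sets passed (0%). Fos differed by -1.32 in neocortex and Sdc4 by 0.45, Gfap by 0.47 and Nr4a1 by -0.63, and the interaction p of these 4 genes was at least 0.285 before adjustment. The labels do not say whether the tissues came from the same animals. Col18a1 differed by 0.11 in neocortex, Lsr by -0.04, Aif1 by 0.08 and Clcn5 by 0.12, with an unadjusted interaction p of 0.0416, 0.0077, 0.0308 and 0.00211, and an adjusted p of 0.999 each. Of the 12 higher and 12 lower genes with the smallest hippocampus p, 5 and 4 had an unadjusted interaction p under 0.05. Among all genes the share was 3.02%. These genes were picked by their p on the hippocampus arrays that the interaction uses again, so their small interaction p is no separate support. The smallest interaction p belonged to Des, the intermediate filament desmin, which differed by 0.48 in hippocampus and -0.89 in neocortex (limma adjusted p = 0.460), followed by Timm23 (-0.22 and 0.14), Eng (0.24 and -0.16) and Mcrs1 (0.09 and -0.34).

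Between S1P2-KO and S1P3-KO hippocampus 0 of 8534 probe sets passed (0%). The leading genes were Crb3, a cell polarity gene (0.93), Lef1, a Wnt effector expressed in thalamus (1.21, limma adjusted p = 0.0844 for both), Sparc, a matrix glycoprotein (-0.59), and S1pr3 itself (0.82, adjusted p = 0.152 for both). One of the S1P3-KO arrays had a 3' to 5' ratio of 4.46. Against the shared wild-type arrays Fos differed by -0.93 and Sdc4 by 0.59 on S1P3-KO arrays, beside -1.23 and 0.50 on S1P2-KO arrays, and S1P2-KO and S1P3-KO differed by -0.30 in Fos and -0.09 in Sdc4. Gfap differed by 0.84 on S1P3-KO arrays, and S1P2-KO and S1P3-KO differed by -0.51 in it (unadjusted p = 0.00167, limma adjusted p = 0.234).

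**Figure D5:**
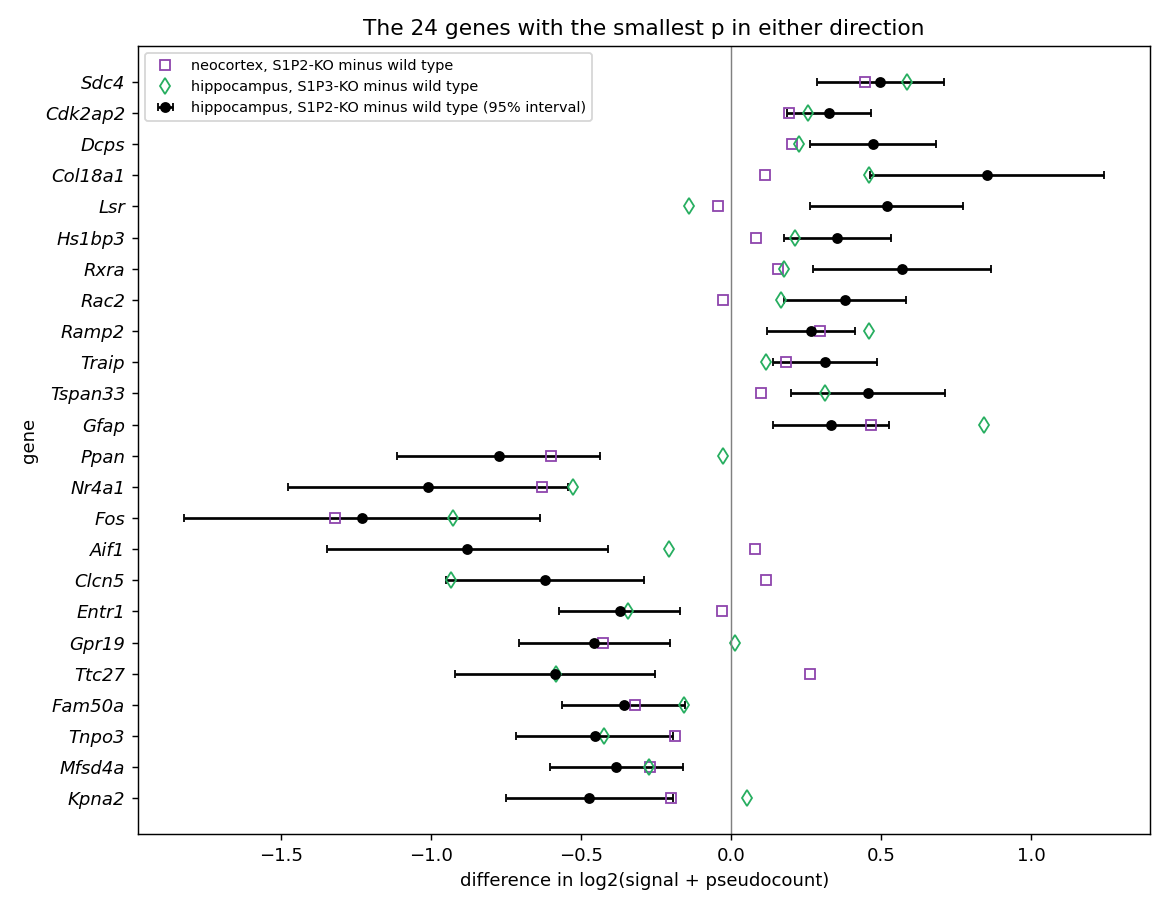
Log2 difference from wild type for the 12 higher and 12 lower genes with the smallest p. Filled points with 95% intervals are S1P2-KO hippocampus, squares S1P2-KO neocortex and diamonds S1P3-KO hippocampus, which shares its wild-type arrays with the first. Fos lies at -1.23, -1.32 and -0.93, and Ppan at -0.78, -0.60 and -0.03.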

How the data were processed

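The deposited values are linear intensities, 1 for each probe set on each array, and are MAS5 signals per the submitters' processing notes. The MAS5 version is not given in the sources used here. Mismatch signal is subtracted in MAS5, which makes low values noisy, and the trimmed mean (2% at either end) was 1000.56 to 1000.66 on all 50 arrays, so no further scaling was applied. Per the labels' protocols, 12 µg of total RNA was labelled with biotin. Arrays have no read depth, and their number limits the precision. The highest rank correlation between any 2 of the 20 arrays was 0.969, and no pair was identical.

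Of 12488 probe sets, 10855 had 1 gene symbol in the platform annotation, 396 several and 1237 none, and 66 were controls. Of those with 1 symbol, 10839 matched RefSeq (GRCm38.p6). Values were log2(signal + 30.7), 30.7 being the 10th percentile of all signals. The 8534 probe sets (6350 genes) whose mean log2 level over all 50 arrays lay above that of the 30th percentile (132.6) were tested. A gene bright in neocortex only could therefore pass. limma 3.58.1 in R 4.3.3 was fitted with a mean trend and sex as covariate, with Benjamini-Hochberg adjustment over all tested probe sets at 0.05. Array measures were compared by two-sided permutation (1e+05 resamples, scipy 1.17.1). The calling procedure was also run on simulated arrays whose noise was independent between probe sets, so that run does not bear on effects shared across an array.

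Named genes are the receptors, the 12 higher and 12 lower genes with the smallest p, up to 4 members of each list with an unadjusted p under 0.05, the 4 leaders of each other contrast, Ttr and tissue markers. Further genes (among them Fosl2, Jund, Bdnf, Gja1 and the fifth members of lists) were named after their values were seen. The genes, lists and alternatives were chosen with earlier results of these data known. Alternatives left out arrays or changed covariates, pseudocount, filter and scaling. One of the gene lists is not reported here.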

Additional observations from a re-analysis of the deposited data

Results flagged for a closer look

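Of the groups of 10 checked for a value far from the others, chance alone flags about 1 in 20. S1P2-KO replicate 7 had the highest 3' to 5' ratio of its group (1.37), the lowest median signal (328.8) and the highest Sparc (2848), each set apart from the other arrays by a gap of about 0.5 to 0.6 of the group's range. In wild type, replicate 4 had the highest ratio (1.20), replicate 2 the highest Ttr (33071), replicate 5 the lowest Hs1bp3 (631.0) and replicate 9 the lowest Timm23 (3712). In all, 7 of 80 groups were set apart in this way.

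The difference between genotypes differed between the sexes for 1 unnamed probe set, by 2.24 on the log2 scale (females minus males, limma adjusted p = 0.00802).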

How the results depend on the processing

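Under every alternative run but 1, 0 probe sets passed adjustment. Leaving out single arrays gave 0 to 1 probe sets, and the 1 was Sdc4 (0.56, limma adjusted p = 0.0147) without wild-type replicate 5. That array had the highest Sdc4 of its group. The count at an unadjusted p under 0.05, 656 of 8534 here, was 882 of 12422 probe sets without a filter. It was 494 of 6126 with the filter at the 50th percentile and 502 of 6350 genes with the mean of a gene's probe sets. On the same 8534 probe sets it ran from 473 with all 25 hippocampus arrays in the fit to 823 with arrays weighted by limma. With single arrays left out it ran from 544 to 951. It was 802 without the 2 arrays whose ratio exceeded 1, 633 with the 3' to 5' ratio and 643 with Ttr as a covariate, and 668 after quantile scaling. A separate level for female replicates 6 and 7, chosen after seeing the data, gave 737. With the replicate block it was 655 and 0 passed adjustment, and among choroid plexus genes 6 were higher at that p (2 without it), among synaptic vesicle genes 5 (1 without it) and among oligodendrocyte genes 2 (0 without it). Same-numbered arrays of the 2 genotypes had deviations correlated at -0.08 to 0.28, above 0.1 in 4 of 10 pairs. Compared with the 5 arrays of the same sex in the other genotype, 5 of 10 arrays correlated best with their own number. Between hippocampus and neocortex of either genotype it was also 5 of 10. The labels give no pairs or batches, so the main fit does not pair the numbers. A batch shared by number was not tested. The receptors and the 24 leading genes had the same direction under each alternative that tested them, and the filter at the 50th percentile removed 6 of them (Aif1, Clcn5, Col18a1, Kpna2, Ppan and Ttc27). The 24 were picked by their p on these same arrays, so their direction under the alternatives is no separate support. The replicate block, the level for replicates 6 and 7, the fit without sex and that of all 25 arrays leave the estimated difference unchanged by design. A change of the filter leaves it unchanged as well. With the mean of a gene's probe sets, Rxra differed by 0.29 and Clcn5 by -0.28. The genotype by sex, genotype by tissue and knockout comparisons had counts of 1, 0 and 0 called probe sets without arrays of a ratio above 1, without a filter and after quantile scaling, and the tissue comparison also with same-numbered tissues as a random block.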
